A study of Danio rerio with 2 samples.

Results

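The Hmx neurons with the GABA transporter slc6a1b were 330 of the 10596 cells deposited in a zebrafish single-cell RNA-seq study. Library 1 held 178 of them among its 4373 cells, and library 2 held 152 among 6223. A cell was taken when it had 500 to 2500 detected genes, at most 12000 UMIs (unique molecular identifiers, each counted as 1 captured transcript) and at most 6% mitochondrial UMIs. It also had to hold at least 1 UMI of hmx2 and hmx3a together, at least 1 of slc6a1b and at least 1 of the neuronal gene elavl3. Cells with any UMI of en1b, gata2a, gata3, tal1, dmrt3a or lbx1a, which mark V1 and several further spinal interneuron classes, were left out. These cells are called Hmx-slc6a1b neurons here. The measured UMIs of these 10 genes chose them, so the values of those genes are a description and were not tested. They made up 5.46% (exact 95% interval 4.70 to 6.29%) of the 3263 elavl3 cells kept in library 1 and 4.72% (4.02 to 5.51%) of the 3219 kept in library 2. The mean was 5.09% ± 0.518 (SD, n = 2 libraries).

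The study sorted EGFP-positive trunk cells from 48 h embryos of an incross of evx1i232/+;evx2sa140/+ fish carrying Tg(evx1:EGFP)SU2, and profiled them with droplet 3' RNA-seq after methanol fixation. In this transgene evx1 regulatory sequence drives EGFP, and it labels V0v interneurons. Embryos of all evx1 and evx2 genotypes from the incross were pooled in each library, no cell carries a genotype label, and so wild-type, heterozygous and mutant cells cannot be told apart here by label. The transgene is also on in some notochord cells, and further libraries rich in them, which the study set aside, are not analysed here. Both libraries, each from a well of the droplet chip, belong to this 1 group, and the submitters describe them as biological replicates. Library 1 carries the word OtherGFP in its title and library 2 the word AllGFP, whose meaning is not given in the sources used here, so a difference in how the libraries were collected cannot be told apart from replicate spread. Cells of several sorts were rehydrated before capture. Which sorts or clutches went into which library is not given in the sources used here. The p-values below set differences between classes against their spread across these 2 libraries and no others, after the level difference between the libraries was fitted. The spread used for a gene also drew on that of the other genes tested.

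V0v interneurons are excitatory spinal neurons that express the homeodomain factors Evx1 and Evx2 and use glutamate, which the vesicular transporters encoded by slc17a6a and slc17a6b load into vesicles. Inhibitory spinal neurons use GABA, glycine or both. GABA is made by the decarboxylases encoded by gad1b, gad1a and gad2, and glycine is taken up by the transporter encoded by slc6a5. Both are loaded into vesicles by the transporter encoded by slc32a1. The product of slc6a1b, a member of the GAT1 family, takes GABA back up from the synapse. Hmx2 and Hmx3a are homeodomain transcription factors found in particular classes of spinal interneuron and in the ear and lateral line. The study names dI2 and V1 interneurons as the spinal cells that express both genes. The rule left out cells with a UMI of en1b, a V1 marker, so V1 cells without one could remain.

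The 3 comparison classes passed the same limits, held elavl3 and lacked the 6 excluded genes. Hmx neurons without slc6a1b (391 and 343 cells) had at least 1 UMI of hmx2 and hmx3a and 0 of slc6a1b, and slc6a1b neurons without Hmx (59 and 106 cells) had the reverse. The evx excitatory neurons (699 and 804 cells) had at least 1 UMI of evx1 and evx2, at least 1 of slc17a6a and slc17a6b and 0 of the other markers. Here and below a pair of values is library 1 and then library 2. UMIs of all cells of a class in a library were summed and are given as CPM, UMIs per 1000000 UMIs summed. Median UMIs per cell were 3866 and 4304 in Hmx-slc6a1b neurons, against 3269 and 3683 in Hmx neurons without slc6a1b, 3793 and 4576 in slc6a1b neurons without Hmx and 4328 and 4942 in evx excitatory neurons. A count of 0 slc6a1b or hmx UMIs limits the UMIs captured and does not show that a cell lacked the transcript.

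Libraries held 18908819 and 34071583 UMIs, and 3571 and 4556 cells passed the limits. Library 1 stood apart in heat-shock genes in every class. Their summed level was 34218 and 7868 CPM in Hmx-slc6a1b neurons, against 35242 and 10346 CPM in Hmx neurons without slc6a1b, 27047 and 9825 CPM in slc6a1b neurons without Hmx and 26573 and 9545 CPM in evx excitatory neurons. The 2 libraries shared 3 barcodes, 2 of them among kept cells and 0 among Hmx-slc6a1b neurons. Fibroblast and notochord markers were low in Hmx-slc6a1b neurons, with 9.82 and 34.5 CPM summed over 10 fibroblast genes and 14 and 3.0 CPM over 8 notochord genes with tbxta, col9a1a and epyc at 0. The sums were 7.01 and 6.01 CPM over 8 motoneuron genes with chata, mnx1, mnx2a and isl2b at 0, and 44.9 and 134 CPM over 14 progenitor genes with sox2, sox19a and mki67 at 0. Skin, blood and muscle genes summed to 8.42 and 164 CPM, 29.5 and 246 CPM and 629.8 and 667 CPM. Muscle genes were thus not low, and they stood at similar levels in every class. They were at 806 and 767 CPM in Hmx neurons without slc6a1b, 677 and 720 CPM in slc6a1b neurons without Hmx and 608 and 602 CPM in evx excitatory neurons. The neuronal genes elavl4, gng3, snap25a, sncb and stmn2a were all detected. With elavl3 they summed to 10119 and 9783 CPM in Hmx-slc6a1b neurons, against 7902 and 8107 CPM in Hmx neurons without slc6a1b, 8299.7 and 6708 CPM in slc6a1b neurons without Hmx and 9458 and 9777 CPM in evx excitatory neurons. Every class had to hold elavl3, so these sums are a description only.

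Both Hmx genes marked most Hmx-slc6a1b neurons. hmx2 had a UMI in 71.9% and 83.6% of them, hmx3a in 80.9% and 78.3%, and 94 cells of each library held both. slc6a1b had a median of 3 and 3.5 UMIs per cell, with highest values of 33 and 24. At the edge of the rule, 8 and 6 cells had exactly 1 UMI of slc6a1b and 1 of the Hmx genes together, and 111 and 100 cells had at least 2 of each. Just outside it, 5 and 10 cells met the marker rule but held an excluded gene, which was en1b in 3 and 8 of them. A further 5 and 4 cells met it but for a UMI of elavl3. Among elavl3 cells without the excluded genes, slc6a1b was found in 31.3% (27.5 to 35.3%) and 30.7% (26.7 to 35.0%) of cells with an Hmx UMI, and in 2.35% (1.80 to 3.02%) and 4.62% (3.80 to 5.56%) of cells without one. Conversely, 75.1% and 58.9% of the slc6a1b cells had an Hmx UMI. When cells with the excluded genes were kept, 183 and 162 slc6a1b cells had an Hmx UMI and 73 and 165 had none.

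The vesicular transporter gene slc32a1 was widespread in Hmx-slc6a1b neurons, while slc6a5 and the GABA synthesis genes were found in fewer cells. Shares of cells with a UMI are given after each cell was thinned to 2000 UMIs, and they are a description, since cells are not replicates. Thinning left out 2 and 0 Hmx-slc6a1b neurons, 29 and 10 Hmx neurons without slc6a1b and 9 and 5 evx excitatory neurons. slc32a1 had a UMI in 79.5% (72.8 to 85.2%) and 74.3% (66.6 to 81.1%) of Hmx-slc6a1b neurons, against 54.1% and 50.8% of Hmx neurons without slc6a1b and 30.6% and 27.2% of evx excitatory neurons. gad1b was found in 14.8% (9.88 to 20.9%) and 15.1% (9.84 to 21.8%) of Hmx-slc6a1b neurons, against 1.1% and 1.2% of Hmx neurons without slc6a1b and 0 of 690 and 0 of 799 evx excitatory neurons. Counts of 0 leave room for shares of up to 0.435% and 0.375% (3 cells of the total). The intervals of gad1b in Hmx-slc6a1b neurons, which cover counting error only, did not overlap those of these other classes. In slc6a1b neurons without Hmx the mean share of gad1b was 6.46% ± 6.29 (SD, n = 2 libraries), uneven between the libraries. Any gad gene had a UMI in 9 of 55 and 4 of 99 of these cells, against 30 of 176 and 29 of 152 Hmx-slc6a1b neurons. The intervals of these gad shares overlapped in library 1 (7.77 to 28.8% and 11.8 to 23.4%). In library 2 they did not (1.11 to 10.0% and 13.2 to 26.2%). slc6a5 ran the other way between the Hmx classes, with 23.3% (17.3 to 30.2%) and 25.7% (18.9 to 33.4%) of Hmx-slc6a1b neurons, against 37.3% (32.3 to 42.5%) and 39.9% (34.6 to 45.4%) of Hmx neurons without slc6a1b. It was not low beside evx excitatory neurons. Without thinning it was found in 57 of 178 and 54 of 152 Hmx-slc6a1b neurons, against 62 of 699 and 105 of 804 evx excitatory neurons. abat, the transaminase that breaks GABA down, was found in 25% and 19.1% of Hmx-slc6a1b neurons, against 7.18% and 4.2% of Hmx neurons without slc6a1b and 7.25% and 4.01% of evx excitatory neurons.

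gad2 and gad1a were rare in both Hmx classes. gad2 had a UMI in 2.27% and 3.29% of Hmx-slc6a1b neurons, against 1.93% and 4.8% of Hmx neurons without slc6a1b, and gad1a in 0.568% and 1.97% against 2.49% and 2.4%. The excitatory genes were present in a minority of Hmx-slc6a1b neurons. slc17a6a had a UMI in 11.4% (7.08 to 17%) and 10.5% (6.14 to 16.5%) of them, against 8.56% and 9.91% of Hmx neurons without slc6a1b, and slc17a6b in 3.98% and 7.24% of Hmx-slc6a1b neurons, against 2.76% and 6.91%. The genes that define V0v cells were likewise found in a minority. evx1 had a UMI in 18.2% (12.8 to 24.7%) and 15.8% (10.4 to 22.6%) of Hmx-slc6a1b neurons, against 18.8% and 20.7% of Hmx neurons without slc6a1b, and evx2 in 6.82% (3.57 to 11.6%) and 7.89% (4.15 to 13.4%), against 14.1% and 15.6%. Without thinning, evx1 or evx2 was found in 66 of 178 and 52 of 152 Hmx-slc6a1b neurons. The labels call the sorted cells V0v interneurons, and evx1, their defining marker, was at 0 UMIs in most Hmx-slc6a1b neurons at this depth. It was also at 0 UMIs in most thinned evx excitatory neurons, although evx UMIs chose that class. There evx1 had a UMI in a mean of 36.4% ± 5.35 (SD, n = 2 libraries) of cells.

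Free RNA in droplets was read from cells with 0 elavl3 UMIs and at least 5 collagen UMIs of col1a1a, col1a1b and col1a2, 66 and 727 cells with median depths of 5135 and 5515 UMIs. In the 65 and 698 of them thinned to 2000 UMIs, slc32a1 had a UMI in 1.54% and 0.573%, gad1b in 0% and 0%, slc6a5 in 0% and 0.43%, slc17a6a in 0% and 0% and evx1 in 1.54% and 0.143%. A count of 0 leaves room for a share of up to 4.62% in the 65 cells and 0.430% in the 698 cells. In library 2 the shares of slc32a1, gad1b, slc6a5, slc17a6a and evx1 in Hmx-slc6a1b neurons all stood above the background.

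Within single Hmx-slc6a1b neurons the detection of GABA and glycine genes together depended on depth. Among thinned cells, a gad gene without slc6a5 was found in 25 of 176 and 24 of 152 cells, slc6a5 without a gad gene in 36 of 176 and 34 of 152 and both in 5 of 176 and 5 of 152. Neither was detected in 110 of 176 and 89 of 152, a group that thinning enlarges, since without thinning it was 80 of 178 and 69 of 152. At least 1 of the gad genes, slc6a5 and slc32a1 had a UMI in 148 of 176 and 124 of 152 thinned cells, and slc17a6a or slc17a6b together with slc32a1 in 17 of 176 and 11 of 152. slc6a5 was found in 16.7% and 17.2% of the cells with a gad UMI and in 24.7% and 27.6% of those without, which rests on 5 cells with both in each library. The exact 95% intervals overlapped in each library (5.64 to 34.7% with a gad UMI and 17.9 to 32.5% without in library 1, and 5.85 to 35.8% with and 20.0 to 36.4% without in library 2). Without thinning both were found in 12 of 178 and 16 of 152 cells, and slc6a5 in 22.6% and 35.6% of the cells with a gad UMI and in 36.0% and 35.5% of those without.

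**Figure D1:**
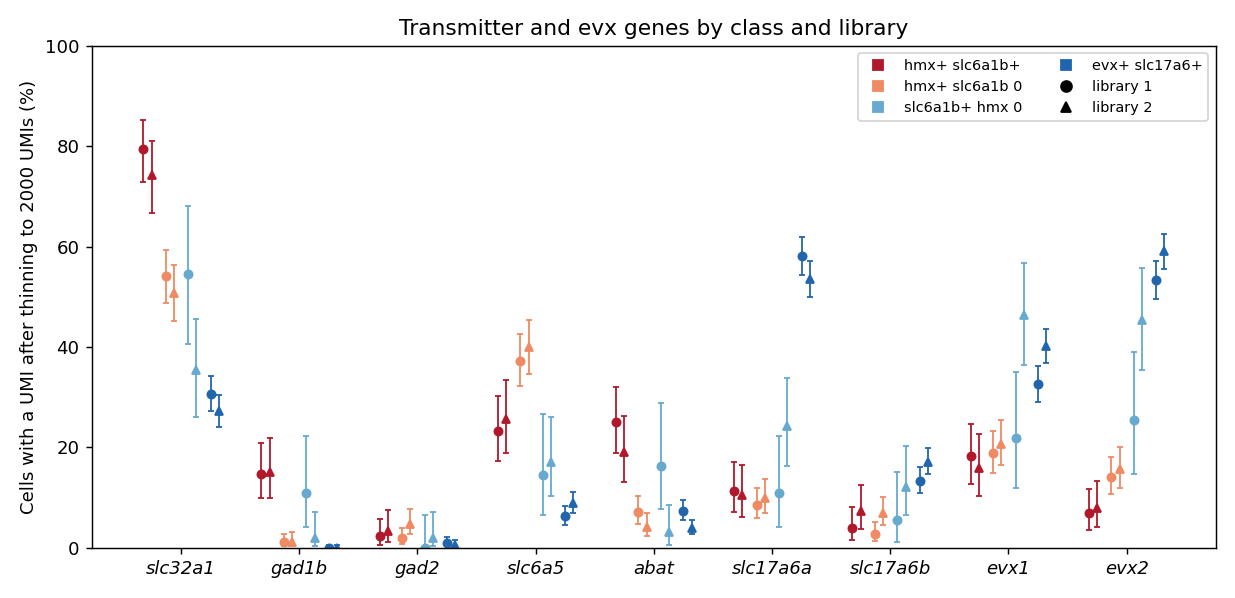
Share of cells with a UMI (%, y axis, after thinning to 2000 UMIs) of transmitter and evx genes (x axis) in Hmx-slc6a1b neurons (hmx+ slc6a1b+) and the 3 comparison classes, with circles for library 1, triangles for library 2 and bars for exact 95% intervals. slc32a1 and gad1b lie higher in Hmx-slc6a1b neurons (14.8% and 15.1% for gad1b) than in Hmx neurons without slc6a1b (1.1% and 1.2%), and slc6a5 lies lower than in that class.

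Hmx-slc6a1b neurons were compared with Hmx neurons without slc6a1b to ask what else differs between Hmx neurons that hold the GABA transporter and those in which it was not detected. Higher in Hmx-slc6a1b neurons were gad1b, slc32a1 and abat of the GABA genes, the peptide precursor pnoca, 5 of 6 neurofilament genes, 10 of 23 synapse and release genes and 11 of 18 immediate early genes, and POU, scratch, Pax and other transcription factor genes and ribosomal protein genes were lower. In edgeR's quasi-likelihood test on the sums, 1776 of 9257 genes passed an adjusted p of 0.05 (Benjamini-Hochberg over all genes tested), which is 19.2%, with 944 higher (10.2%) and 832 lower (8.99%) in Hmx-slc6a1b neurons. The direction was the same within each library for 1772 of the 1776. The median log2 difference of all genes tested was -0.04. DESeq2 called 991 genes, and 792 passed when cells were thinned to 2000 UMIs before the classes were chosen. Hmx-slc6a1b neurons had more UMIs per cell than Hmx neurons without slc6a1b (medians above), and the part of depth in the differences that remained after thinning was not tested.

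Of the GABA and glycine genes, 4 of 9 tested were higher and 1 lower against Hmx neurons without slc6a1b, with a median log2 difference of 0.65. gad1b had 107 and 107 CPM in Hmx-slc6a1b neurons, against 7.52 and 5.9 CPM in Hmx neurons without slc6a1b, a log2 difference of 3.88 ± 0.33 (SE, as for all values after ± below), adjusted p = 8.83e-07. slc32a1 had 1044 and 873 CPM against 454 and 473 CPM (0.94 ± 0.15, adjusted p = 0.000289). abat had 132 and 94.6 CPM against 41.4 and 25.8 CPM (1.65 ± 0.23, adjusted p = 5.38e-05). gphnb, which encodes the inhibitory synapse scaffold gephyrin, had 157 and 164 CPM against 93.3 and 97.4 CPM (0.65 ± 0.18, adjusted p = 0.0131). The lower gene was slc6a5, with 167 and 197 CPM in Hmx-slc6a1b neurons, against 286 and 493 CPM in Hmx neurons without slc6a1b (-1.15 ± 0.20, adjusted p = 0.00053). The groups did not overlap in any of these 5 genes. Here and below, genes whose levels are said not to overlap had already passed the test. The lack of overlap is therefore a description and no further support, and its share over all genes is not given. The other 4 did not pass. gad2 had 9.82 and 13.5 CPM against 12 and 26.6 CPM (adjusted p = 0.331), and gad1a 12.6 and 7.51 CPM against 14.3 and 10.3 CPM (adjusted p = 0.698). slc6a1a had 29.5 and 33 CPM against 12 and 17 CPM (adjusted p = 0.0606), and gphna 44.9 and 45.1 CPM against 24.1 and 38.4 CPM (adjusted p = 0.241). The glycine transporter gene slc6a9 was at 7.01 and 3.0 CPM and slc6a11a at 0 and 1.5 CPM in Hmx-slc6a1b neurons, too low to test. Neither slc6a5 nor gphnb passed when the library term was left out of the fit (adjusted p = 0.0796 and 0.0514). gphnb also lost its call when cells were thinned to 2000 UMIs before the classes were chosen.

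pnoca, the precursor of the opioid-like peptide nociceptin, had 2665 and 2419.8 CPM in Hmx-slc6a1b neurons, against 108 and 113 CPM in Hmx neurons without slc6a1b, 2059.9 and 468 CPM in slc6a1b neurons without Hmx and 3.93 and 1.77 CPM in evx excitatory neurons. It had a UMI in 77.3% (70.4 to 83.2%) and 71.1% (63.2 to 78.1%) of thinned Hmx-slc6a1b neurons, against 7.46% and 5.41% of Hmx neurons without slc6a1b and 1.54% and 0% of the collagen cells. The log2 difference from Hmx neurons without slc6a1b was 4.44 ± 0.34, adjusted p = 1.1e-07, and the levels of Hmx-slc6a1b neurons lay far above those of Hmx neurons without slc6a1b in both libraries. Its UMIs were spread over 142 cells of library 1 and 113 of library 2, with at most 58 and 50 UMIs in a cell.

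The other genes with the largest increases were chrna2b, cbln1, mgp, rasgrf2b, fam19a5b, doc2b and layna. Here and below, genes with the largest changes were taken among called genes with at least 30 UMIs in the class where they were higher. The other class had no such limit, so the largest folds favour genes with few UMIs there. chrna2b, a nicotinic acetylcholine receptor subunit, had 198 and 239 CPM in Hmx-slc6a1b neurons, against 12 and 8.12 CPM in Hmx neurons without slc6a1b (4.34 ± 0.33, adjusted p = 1.1e-07). cbln1, a secreted cerebellin that organizes synapses, had 128 and 93.1 CPM against 4.51 and 6.64 CPM (4.20 ± 0.32, adjusted p = 1.1e-07). Both were therefore detected in either class, at levels that did not overlap. mgp, matrix Gla protein, had 42 UMIs in Hmx-slc6a1b neurons over both libraries, against 0 in Hmx neurons without slc6a1b, and was at least 27.3-fold higher when 3 UMIs over both libraries are taken as the floor. Its UMIs came from 4 cells of library 1 and 14 of library 2. rasgrf2b, an exchange factor of Ras, had 31 UMIs against 1, a ratio of 60.4, 95% interval 10.1 to 2459.9. fam19a5b, a secreted TAFA protein, also had 31 against 1, with the same ratio. doc2b, a calcium sensor of vesicle release, had 38 UMIs against 3 (ratio 24.7, 95% interval 7.82 to 125), and layna, a layilin, 31 against 3 (ratio 20.1, 95% interval 6.28 to 103). Where Hmx neurons without slc6a1b had so few UMIs the intervals span more than a 10-fold range. These and later intervals of UMI ratios take each UMI summed over both libraries as independent. They cover counting error only and leave out the spread between cells and between libraries. All 8 genes passed under every alternative that tested them. They were picked by size among genes already called, so the size of their changes is a description and no further support.

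The genes with the largest decreases were pdgfbb, pax6a, dla, rnaset2, fgfr3, spata17, prdm8b and txn. pdgfbb, a platelet-derived growth factor, and pax6a, a transcription factor of neural progenitors, had 0 UMIs in Hmx-slc6a1b neurons, against 37 and 32 in Hmx neurons without slc6a1b (at least 6.33-fold lower and at least 5.48-fold lower). Zero UMIs in the 1378700 summed over both libraries leave room for up to 2.18 CPM. dla, a Delta ligand of Notch, had 1 UMI against 59 (ratio 0.033, 95% interval 0.000822 to 0.191), and rnaset2, a ribonuclease, 1 against 44 (0.0443, 95% interval 0.0011 to 0.26). fgfr3, a fibroblast growth factor receptor, had 1 UMI against 35 (0.0556, 95% interval 0.00137 to 0.331) and spata17 1 against 31 (0.0628, 95% interval 0.00154 to 0.377). prdm8b, a transcriptional regulator, had 0 and 7.51 CPM in Hmx-slc6a1b neurons, against 39.1 and 67.1 CPM in Hmx neurons without slc6a1b (-3.94 ± 0.54, adjusted p = 5.39e-05). txn, a thioredoxin, had 7.01 and 4.51 CPM against 76.7 and 84.9 CPM (-3.87 ± 0.43, adjusted p = 4.77e-06). dla, rnaset2 and prdm8b kept their call under every alternative that tested them, and the other 5 lost it under at least 1, with fgfr3 losing it under 4.

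Levels of several of these genes in all 4 classes are shown in the plot of summed levels by class. There pnoca, slc32a1, gad1b, anos1a, nefma and zmat4b were highest in Hmx-slc6a1b neurons within each library, and zfhx3, pou3f2b, pax8 and esrrb were lowest.

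**Figure D2:**
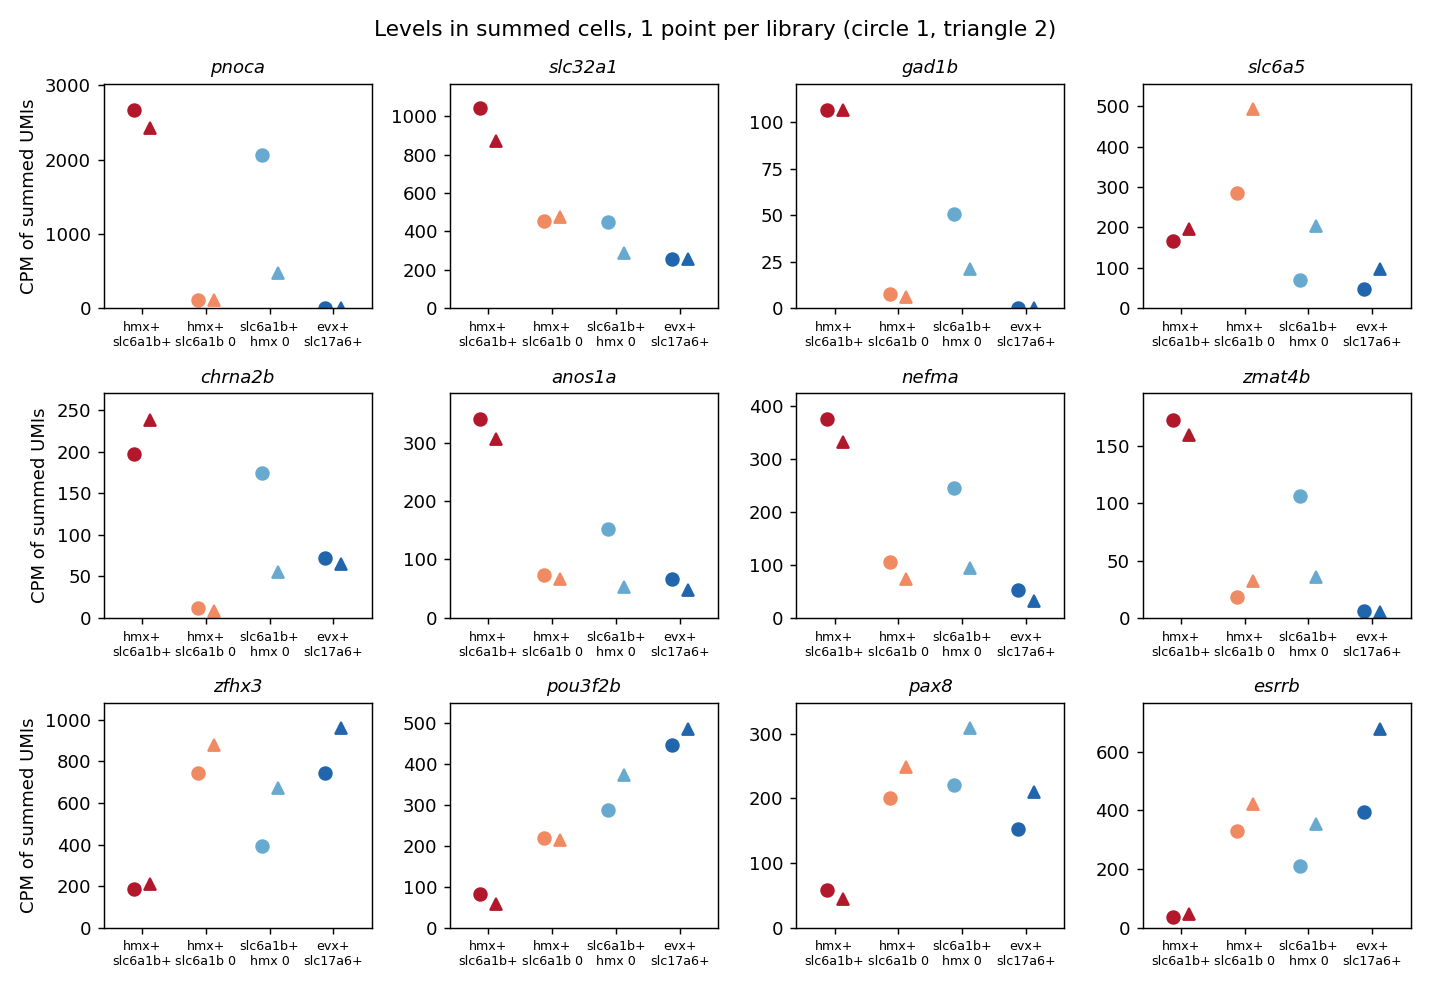
Level in summed cells (CPM, y axis, starting at 0, scale set per gene) of 12 genes in Hmx-slc6a1b neurons (hmx+ slc6a1b+, left) and the 3 comparison classes, 1 point per library (circle library 1, triangle library 2). pnoca is at 2665 and 2419.8 CPM in Hmx-slc6a1b neurons and at 3.93 and 1.77 CPM in evx excitatory neurons, and zfhx3 is at 185 and 212 CPM in Hmx-slc6a1b neurons and at 744 and 961 CPM in evx excitatory neurons.

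The study split its V0v and mutant cells into groups and named 6 genes as higher in the first group, a list chosen on these cells and so no independent evidence. All 6 were higher in Hmx-slc6a1b neurons than in Hmx neurons without slc6a1b, with a median log2 difference of 2.87. Besides chrna2b these were anos1a, an extracellular matrix protein, with 341 and 306 CPM against 73.7 and 67.1 CPM (2.10 ± 0.20, adjusted p = 1.66e-06), and fndc4b, with 140.3 and 215 CPM against 13.5 and 17.7 CPM (3.41 ± 0.38, adjusted p = 5.76e-06). cnih3, an auxiliary protein of AMPA receptors, had 54.7 and 46.6 CPM against 5.27 and 2.95 CPM (3.52 ± 0.44, adjusted p = 2.19e-05). plpp4, a lipid phosphatase, had 42.1 and 46.6 CPM against 9.03 and 7.38 CPM (2.32 ± 0.40, adjusted p = 0.000478), and drd2b, a dopamine receptor, 15.4 and 30.0 CPM against 3.01 and 6.64 CPM (2.12 ± 0.54, adjusted p = 0.00966). The levels of these 6 genes did not overlap between the classes. The 3 genes named for the second group, chosen the same way, were all lower. The nuclear receptor gene esrrb had 36.5 and 48.1 CPM against 331 and 422 CPM (-3.26 ± 0.21, adjusted p = 3.39e-08). The scleraxis gene scxa had 8.42 and 45.1 CPM against 96.3 and 108 CPM (-2.07 ± 0.35, adjusted p = 0.000377), and svild 1.4 and 4.51 CPM against 12 and 19.2 CPM (-2.47 ± 0.62, adjusted p = 0.00868). The calls of drd2b and svild were lost under 1 and 2 of the 8 alternatives that tested them.

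Of 18 genes that the study described as lower in the cells it took to be evx1 and evx2 mutant, again a list chosen on these cells, 13 were lower in Hmx-slc6a1b neurons than in Hmx neurons without slc6a1b and 0 higher (median log2 difference -1.78). Among them were genes of POU transcription factors. pou2f2a, as the files name it, had 74.3 and 155 CPM in Hmx-slc6a1b neurons, against 804 and 932 CPM in Hmx neurons without slc6a1b (-3.05 ± 0.20, adjusted p = 3.39e-08). Its paralogue LOC100537384, with which it could share reads, had 77.1 and 111 CPM against 865 and 1289 CPM (-3.60 ± 0.20, adjusted p = 4.96e-09). pou3f1, pou3f2b and pou3f3b fell by 1.61, 1.72 and 1.30 on the log2 scale. The scratch genes, zinc finger repressors of the neural lineage, fell by 2.26 (scrt1a) and 2.35 (scrt2), and scrt1a had 187 and 252 CPM against 773 and 1215 CPM. The homeodomain and zinc finger factor gene zfhx3 had 185 and 212 CPM against 745 and 877 CPM (-2.13 ± 0.18, adjusted p = 3.68e-07). The nuclear receptor genes nr5a2 and nr2f5, mafba, pbx1b and ebf1a fell by 2.40, 3.43, 1.84, 1.85 and 1.52 on the log2 scale, and the calls of nr5a2 and ebf1a were lost under 2 and 1 of the 9 alternatives. ccdc3a, dachc, luzp1 and mycb did not pass, with adjusted p of 0.399, 0.225, 0.0624 and 0.831. The study found hmx2 and hmx3a mainly in presumed mutant cells, and both classes here hold an Hmx UMI. This comparison therefore need not set mutant against wild-type cells. The study also reported pou2f2a, pbx1b and scrt1a, among others, as lower in its first mutant group than in its second. It reported slc6a1b as higher in that first mutant group.

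Of 6 genes that the study described as higher in the presumed mutant cells, chosen on these cells too, zmat4b was higher in Hmx-slc6a1b neurons, with 173 and 159 CPM against 18.1 and 31.7 CPM (2.63 ± 0.27, adjusted p = 2.51e-06), and bhlhe22 and irx1a were lower. bhlhe22, a helix-loop-helix factor of dorsal inhibitory neurons, had 39.3 and 78.1 CPM against 212 and 529.8 CPM (-2.72 ± 0.34, adjusted p = 2.26e-05, its call being lost with DESeq2). irx1a, an Iroquois factor, had 22.4 and 18 CPM against 178 and 143 CPM (-3.08 ± 0.30, adjusted p = 1.66e-06). The other 3 did not pass. otpb, a homeodomain factor, had 471 and 491 CPM against 416 and 608 CPM (adjusted p = 0.617). znf385c had 112 and 114 CPM against 95.5 and 119 CPM (adjusted p = 0.984), and znf385a 25.2 and 57.1 CPM against 32.4 and 39.8 CPM (adjusted p = 0.902). The list moved in both directions, and its median log2 difference was -0.08. hmx2 and hmx3a, which the study also described as higher, are genes of the rule and are not in this list. The study found zmat4b mainly in its first mutant group, and bhlhe22 and irx1a mainly in its second.

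Transcription factor genes of spinal inhibitory interneurons were lower in Hmx-slc6a1b neurons than in Hmx neurons without slc6a1b in 8 of 9 tested genes and higher in 0 (median -2.10), beside 8.99% of all genes lower. pax8, a paired box factor, had 58.9 and 45.1 CPM in Hmx-slc6a1b neurons, against 201 and 249 CPM in Hmx neurons without slc6a1b (-2.19 ± 0.21, adjusted p = 1.71e-06). pax2a had 5.61 and 37.6 CPM against 85.8 and 181 CPM (-2.78 ± 0.34, adjusted p = 1.37e-05). pax2b and pax5 fell by 1.64 and 2.81 on the log2 scale, lhx1b by 2.10 and lhx5 by 0.99. lhx1a, a LIM homeodomain factor, had 1011 and 1349 CPM against 1101 and 1674 CPM and did not pass (adjusted p = 0.148). foxd3, a V1 interneuron and neural crest factor, had 14 and 34.5 CPM against 10.5 and 162 CPM (-1.71 ± 0.49, adjusted p = 0.0195). The fall came from library 2 alone, and its call was lost under 3 of the 8 alternatives that tested it. Its UMIs in Hmx-slc6a1b neurons came from 2 cells of library 1 and 5 of library 2. pkd2l1 had 5.61 and 6.01 CPM and prdm8 0 and 4.51 CPM in Hmx-slc6a1b neurons and were not tested, and ptf1a, prdm13, lbx1b, tal2 and sst1.1 had 0 UMIs there.

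The V0v genes split. Against Hmx neurons without slc6a1b, 3 neurofilament genes were higher in Hmx-slc6a1b neurons. nefma had 375 and 332 CPM against 105 and 73.1 CPM (1.92 ± 0.20, adjusted p = 2.9e-06), and nefmb 135 and 203 CPM against 30.1 and 35.4 CPM (2.26 ± 0.31, adjusted p = 5.38e-05). zgc:65851, known as neff1, had 71.5 and 84.1 CPM against 36.9 and 37.6 CPM (0.96 ± 0.24, adjusted p = 0.00856). The internexin gene inab and 3 transcription factor genes were lower. inab had 169.7 and 197 CPM against 284 and 278 CPM (-0.71 ± 0.18, adjusted p = 0.00758), and ebf3a 36.5 and 76.6 CPM against 185 and 255 CPM (-2.07 ± 0.23, adjusted p = 5.77e-06). uncx had 379 and 240.3 CPM against 472 and 476 CPM (-0.72 ± 0.18, adjusted p = 0.00851), and zgc:153395, known as skor2, 25.2 and 3.0 CPM against 101 and 56.1 CPM (-2.54 ± 0.58, adjusted p = 0.00476). Calls were lost under some of the 9 alternatives for skor2 (4), neff1 (3), inab (1), uncx (1) and nefmb (1). Those of inab and uncx were lost without the library term (adjusted p = 0.062 and 0.0885). uncx4.1 had 15.4 and 19.5 CPM against 21.8 and 44.3 CPM (adjusted p = 0.106). skor1a, skor1b, lmx1ba and lmx1bb had 0 UMIs in Hmx-slc6a1b neurons. evx1 and evx2, not tested, had 119 and 105 CPM and 35.1 and 42.1 CPM in Hmx-slc6a1b neurons, against 137 and 126 CPM and 97.1 and 117 CPM in Hmx neurons without slc6a1b.

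No glutamate or cholinergic gene tested passed in this comparison. The glutaminase genes glsa (49.1 and 46.6 CPM against 37.6 and 42.8 CPM, adjusted p = 0.692) and glsb (19.6 and 19.5 CPM against 9.78 and 8.12 CPM, adjusted p = 0.0996) did not pass, and ache, acetylcholinesterase, had 65.9 and 61.6 CPM against 50.4 and 57.6 CPM (adjusted p = 0.689). slc17a6a and slc17a6b, which the class rules used elsewhere and which were not tested, had 61.7 and 87.1 CPM and 18.2 and 39.1 CPM in Hmx-slc6a1b neurons, against 52.7 and 75.3 CPM and 15.8 and 46.5 CPM in Hmx neurons without slc6a1b. The glutamate transporter gene slc17a7b and the choline transporter gene slc5a7a had 1 UMI each in Hmx-slc6a1b neurons, as did the vesicular acetylcholine transporter gene slc18a3a (adjusted p = 0.538), and chata, chatb, slc18a3b, slc17a7a and slc17a8 had 0.

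The levels also varied among Hmx neurons with the number of slc6a1b UMIs per cell, given here as a description, since that number belongs to the rule and the cells with more of it were deeper. Hmx neurons were grouped by 0, 1, 2 to 4 and 5 or more slc6a1b UMIs, which gave 391, 39, 68 and 71 cells in library 1 and 343, 35, 50 and 67 in library 2. Their median depths were 3269, 3754, 3705 and 4127 UMIs in library 1 and 3683, 3901, 4199.5 and 4836 UMIs in library 2. In that order pnoca had 108, 1535, 2065 and 3728 CPM in library 1 and 113, 492, 1858 and 3642 CPM in library 2. gad1b had 7.52, 27.3, 83.8 and 164 CPM in library 1 and 5.9, 42.8, 52.8 and 170.3 CPM in library 2. Both climbed with the slc6a1b UMIs in each library, and so did slc32a1, anos1a, chrna2b and tmeff2b.

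Other genes went down along the same order. pou2f2a had 804, 129.6, 118 and 9.87 CPM in library 1 and 932, 378, 192 and 31.5 CPM in library 2. zfhx3 had 745, 375, 221 and 62.5 CPM in library 1 and 877, 406, 274 and 85.1 CPM in library 2. slc6a5 had 286, 212, 156 and 155 CPM in library 1 and 493, 257, 269 and 123 CPM in library 2. pou2f2a, zfhx3 and slc6a5 were thus lowest in the cells with 5 or more slc6a1b UMIs in both libraries, and slc6a5 was not ordered between 1 and 2 to 4 UMIs in library 2. evx1 showed no such order, with 137, 102, 114 and 132 CPM in library 1 and 126, 85.5, 110.4 and 110.4 CPM in library 2, nor did lhx1a. calb1, which encodes the calcium buffer calbindin, was highest in the cells with 1 slc6a1b UMI, with 97.8, 362, 164 and 168 CPM in library 1 and 135, 442, 192 and 6.31 CPM in library 2. Among cells with a slc6a1b UMI it came from 18 cells of library 1 and 17 of library 2. Of its UMIs there, 1 cell held 50 of 147 in library 1 and 1 cell 38 of 104 in library 2. The order of calb1 thus rests on few cells.

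**Figure D3:**
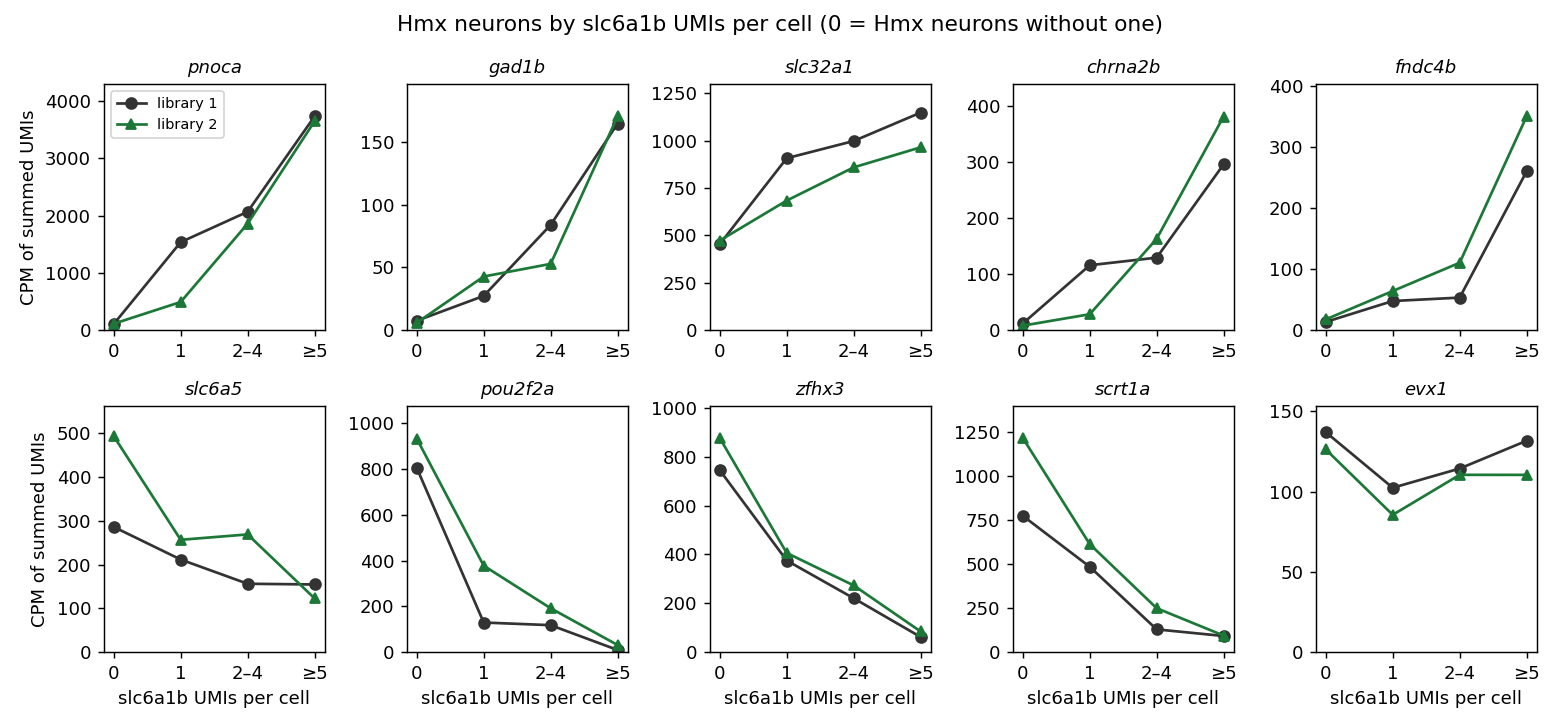
Level in summed Hmx neurons (CPM, y axis, starting at 0) of 10 genes by the number of slc6a1b UMIs in the cell (x axis, 0 being Hmx neurons without slc6a1b), with a line per library (circle library 1, triangle library 2). pnoca climbs to 3728 and 3642 CPM at 5 or more UMIs, and pou2f2a drops to 9.87 and 31.5 CPM.

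Within thinned Hmx-slc6a1b neurons the cells with and without a pnoca UMI (136 and 40 cells in library 1, 108 and 44 in library 2) differed in some of the same genes, described without a test. gad1b was found in 17.6% of the cells with pnoca and 5.0% of those without it in library 1, and in 19.4% of the cells with pnoca and 4.55% of those without it in library 2. chrna2b was found in 33.8% of the cells with pnoca and 5.0% of those without it in library 1, and in 41.7% of the cells with pnoca and 11.4% of those without it in library 2. The reverse held for pou2f2a, found in 3.68% of the cells with pnoca and 27.5% of those without it in library 1 and in 10.2% of the cells with pnoca and 36.4% of those without it in library 2. It also held for slc17a6a, found in 7.35% of the cells with pnoca and 25% of those without it in library 1 and in 7.41% of the cells with pnoca and 18.2% of those without it in library 2. The intervals of gad1b and slc17a6a overlapped in both libraries, and those of chrna2b and pou2f2a did not. For gad1b the share without pnoca rests on 2 cells in each library. slc6a5 went opposite ways, with 21.3% of the cells with pnoca and 30.0% of those without it in library 1. In library 2 it was found in 26.9% of the cells with pnoca and 22.7% of those without it. For evx1 the shares with and without pnoca were 17.6% and 20.0% in library 1 and 13.9% and 20.5% in library 2, with overlapping intervals. lhx1a was found in most cells of either kind, 79.4% of the cells with pnoca and 80.0% of those without it in library 1 and 80.6% of the cells with pnoca and 88.6% of those without it in library 2.

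Hmx-slc6a1b neurons were next compared with slc6a1b neurons without Hmx, to ask what differs between slc6a1b neurons with and without an Hmx UMI. slc32a1, gad1b, pnoca and the first-group genes anos1a and chrna2b were higher in Hmx-slc6a1b neurons, and nkx1.2lb, bcl11ba, the Notch target her15.1, and POU, scratch and Pax genes were lower. Of 9257 genes 865 passed (9.34%), with 409 higher (4.42%) and 456 lower (4.93%), and the median of all genes was 0.03. The comparison used the same sums of Hmx-slc6a1b neurons as the first, so the 2 are not independent. It is also the least stable of the 3: 569 genes passed with DESeq2, 182 without the library term, 281 without the upper limits on depth, 94 after thinning before the classes were chosen and 63 when at least 2 UMIs of each marker were required. The class was the smallest, with 59 and 106 cells, and its libraries differed. pnoca had 2059.9 and 468 CPM in slc6a1b neurons without Hmx, and the progenitor genes summed to 50.7 and 1443 CPM there, against 44.9 and 134 CPM in Hmx-slc6a1b neurons. The part of progenitor RNA in the result was not tested.

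In transmitter genes, slc32a1 had 1044 and 873 CPM in Hmx-slc6a1b neurons, against 447 and 289 CPM in slc6a1b neurons without Hmx (1.39 ± 0.17, adjusted p = 6.77e-05). gad1b had 107 and 107 CPM against 50.7 and 21.1 CPM (1.71 ± 0.35, adjusted p = 0.00518). abat had 132 and 94.6 CPM against 101 and 29.5 CPM (0.95 ± 0.28, adjusted p = 0.0416), where the groups overlapped. The calls of slc32a1, gad1b and abat were lost under 1, 4 and 7 of the 9 alternatives. The other tested genes of the GABA and glycine list did not pass. slc6a5 had 167 and 197 CPM against 69.1 and 205 CPM (0.36 ± 0.25, adjusted p = 0.43), and with no excluded genes it was lower in Hmx-slc6a1b neurons (-1.17 ± 0.16, adjusted p = 0.000125). gad2 had 9.82 and 13.5 CPM against 0 and 19 CPM (adjusted p = 0.979), and gad1a 12.6 and 7.51 CPM against 18.4 and 2.11 CPM (adjusted p = 0.882). The genes gphna, gphnb and slc6a1a had adjusted p of 0.995, 0.142 and 0.227. slc6a9, not tested, was at 7.01 and 3.0 CPM against 0 and 61.2 CPM, and thus had UMIs in slc6a1b neurons without Hmx of library 2 and none in library 1. pnoca differed by 1.24 ± 0.30, adjusted p = 0.0142, although the size within libraries was uneven, since its level in slc6a1b neurons without Hmx of library 1 came near that of Hmx-slc6a1b neurons. evx1 and evx2, not tested, had 119 and 105 CPM and 35.1 and 42.1 CPM in Hmx-slc6a1b neurons, against 129 and 379.8 CPM and 179.7 and 456 CPM in slc6a1b neurons without Hmx.

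The largest increases were in mtap, calb1, fam19a5a, eml2, rps6ka3b, cxadr, mgp and plcxd3. calb1 had 206 and 156 CPM in Hmx-slc6a1b neurons, against 4.61 and 14.8 CPM in slc6a1b neurons without Hmx (3.87 ± 0.51, adjusted p = 0.000125), from 18 cells of library 1 and 17 of library 2. In these, 1 cell held 50 of the 147 calb1 UMIs in library 1 and 1 cell 38 of 104 in library 2. plcxd3, a phospholipase C-like gene, had 150.1 and 173 CPM against 36.9 and 14.8 CPM (2.85 ± 0.43, adjusted p = 0.000373). cxadr, a cell adhesion receptor, had 60.3 and 45.1 CPM against 4.61 and 6.33 CPM (3.17 ± 0.67, adjusted p = 0.00595). These 3 genes did not overlap between the classes. The other 5 had at most 3 UMIs in slc6a1b neurons without Hmx. mtap had 41 UMIs against 1 (ratio 20.5, 95% interval 3.49 to 831), and fam19a5a 54 against 2 (13.5, 95% interval 3.57 to 115). eml2 had 40 against 2 (10.0, 95% interval 2.6 to 85.6), the kinase gene rps6ka3b 42 against 2 (10.5, 95% interval 2.74 to 89.7) and mgp 42 against 3 (7.02, 95% interval 2.24 to 35.4). None of the 8 kept its call under every alternative.

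The largest decreases were in nkx1.2lb, bcl11ba, cblb, her15.1, nxph3, tspan7, nr4a2b and dscaml1. nkx1.2lb, a homeodomain factor, had 4.21 and 21 CPM in Hmx-slc6a1b neurons, against 286 and 492 CPM in slc6a1b neurons without Hmx (-5.01 ± 0.30, adjusted p = 9.44e-09). bcl11ba, a zinc finger transcription factor of postmitotic neurons, had 14 and 36 CPM against 230.4 and 694 CPM (-4.23 ± 0.25, adjusted p = 9.44e-09). These 2 passed under every alternative and the other 6 did not. her15.1, a Notch target, had 8.42 and 31.5 CPM against 9.22 and 593 CPM (-3.93 ± 0.65, adjusted p = 0.000863), so its level in slc6a1b neurons without Hmx was high in library 2 and not in library 1. The ubiquitin ligase gene cblb had 1.4 and 4.51 CPM against 18.4 and 71.7 CPM (-4.02 ± 0.54, adjusted p = 0.000154). The neurexophilin gene nxph3 had 4.21 and 4.51 CPM against 27.7 and 86.5 CPM (-3.84 ± 0.50, adjusted p = 0.000119), and the tetraspanin gene tspan7 2.81 and 4.51 CPM against 50.7 and 52.8 CPM (-3.83 ± 0.49, adjusted p = 9.78e-05). nr4a2b, an orphan nuclear receptor, had 11.2 and 7.51 CPM against 18.4 and 188 CPM (-3.66 ± 0.56, adjusted p = 0.000433). dscaml1, a cell adhesion molecule, had 7.01 and 3.0 CPM against 18.4 and 97.1 CPM (-3.64 ± 0.56, adjusted p = 0.000444). In 7 of the 8, all but her15.1, both values of Hmx-slc6a1b neurons lay below both values of slc6a1b neurons without Hmx.

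In the lists chosen by the study on these cells, 11 of the 18 genes lower in presumed mutant cells were also lower here and 0 higher (median -1.53). pou3f2b had 82.8 and 57.1 CPM in Hmx-slc6a1b neurons, against 286 and 371 CPM in slc6a1b neurons without Hmx (-2.29 ± 0.23, adjusted p = 8.17e-06), and pou3f1 22.4 and 24 CPM against 83 and 219 CPM (-2.76 ± 0.30, adjusted p = 2.59e-05). zfhx3 fell by 1.46, pou3f3b by 1.93, mafba by 2.07, scrt1a by 1.94, scrt2 by 1.86, ebf1a by 1.65, nr2f5 by 1.61, pou2f2a by 1.09 and LOC100537384 by 1.06 on the log2 scale. The call of nr2f5 was lost under 5 of 9 alternatives, with a difference of 0.96 ± 1.54 when at least 2 UMIs of the markers were required, and those of pou2f2a and LOC100537384 under 4 of 9 each. Of the 6 genes higher in presumed mutant cells, znf385c (1.30), zmat4b (1.42) and znf385a (1.82) were higher and irx1a (-2.50) and bhlhe22 (-1.35) lower. The call of bhlhe22 was lost under 7 of 9 alternatives, and its difference was 1.05 in library 1 alone, those of zmat4b and znf385a were lost under 5 of 9 each and that of znf385c under 4 of 9. Of the first group's genes anos1a (1.81 ± 0.25, adjusted p = 0.000187) and chrna2b (1.12 ± 0.30, adjusted p = 0.0233, lost under 6 of 9 alternatives) were higher, and of the second's esrrb was lower (-2.78 ± 0.23, adjusted p = 1.04e-06). Of the 9 inhibitory interneuron factors tested, 5 were lower and 0 higher (median -1.91). pax8 had 58.9 and 45.1 CPM against 221 and 308 CPM (-2.38 ± 0.24, adjusted p = 8.17e-06), and pax2b 36.5 and 37.6 CPM against 96.8 and 243 CPM (-2.26 ± 0.28, adjusted p = 7e-05). Of the 8 V0v genes, nefma was higher (1.18 ± 0.23, adjusted p = 0.00292) and ebf3a lower (-2.23 ± 0.26, adjusted p = 3.6e-05), and of the glutamate and cholinergic genes none passed. Of the 44 changes past the threshold among the genes named for this comparison, 9 stayed past it under every alternative.

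Hmx-slc6a1b neurons were last compared with evx excitatory neurons, the cells nearest to the labelled V0v type. Of the GABA and glycine genes gad1b, slc32a1, abat and slc6a5 were higher in Hmx-slc6a1b neurons, 4 of 9 tested, and so were pnoca, gfra1a, tmeff2b and nefma. Lower were skor2, txn and all 18 genes that the study described as lower in presumed mutant cells, nr5a2 and nr2f5 among them. Of 9257 genes 1864 passed (20.1%), with 1011 higher (10.9%) and 853 lower (9.21%), and the median of all genes was -0.04. DESeq2 called 1115, and 978 passed after thinning before the classes were chosen. The class rule of evx excitatory neurons required slc17a6 and evx genes and 0 slc6a1b, so those genes were not tested. The sums of Hmx-slc6a1b neurons are again those used in the first 2 comparisons.

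gad1b had 147 UMIs in Hmx-slc6a1b neurons, against 0 of the 7000000 UMIs summed in evx excitatory neurons, and was at least 249-fold higher (floor of 3 UMIs over both libraries, adjusted p = 5.3e-10). slc32a1 had 1044 and 873 CPM against 256 and 256 CPM (1.81 ± 0.15, adjusted p = 8.55e-08), and abat 132 and 94.6 CPM against 31.1 and 21.5 CPM (2.01 ± 0.21, adjusted p = 1.01e-06). slc6a5 had 167 and 197 CPM against 47.2 and 96.8 CPM (1.32 ± 0.21, adjusted p = 0.000128). These 4 genes did not overlap between the classes, and the median of the 9 tested genes of the list was 1.56. The other 5 did not pass. gad2 had 9.82 and 13.5 CPM against 4.26 and 3.29 CPM (adjusted p = 0.0838), and gad1a 12.6 and 7.51 CPM against 2.29 and 2.79 CPM (adjusted p = 0.063). For slc6a1a, gphna and gphnb the adjusted p was 0.0647, 0.976 and 0.246. The call of slc6a5 was lost without the library term (adjusted p = 0.0591). slc18a3a was lower, with 1 UMI against 159 (ratio 0.0319, 95% interval 0.000803 to 0.18), and ache had 65.9 and 61.6 CPM against 61.9 and 57.8 CPM (adjusted p = 0.981). glsa and glsb did not pass (adjusted p = 0.501 and 0.678).

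The other largest increases were in pnoca, pcdh18b, tmeff2b, gfra1a, mgp, rasgrf2b and penkb. pnoca differed by 9.77 ± 0.47, adjusted p = 7.31e-11, with 3511 UMIs in Hmx-slc6a1b neurons, against 19 in evx excitatory neurons. tmeff2b, a transmembrane protein with follistatin domains, had 191 and 237 CPM against 1.31 and 1.52 CPM (7.07 ± 0.32, adjusted p = 6.03e-11). gfra1a, a receptor of the GDNF family, had 201 and 218 CPM against 2.62 and 1.52 CPM (6.58 ± 0.35, adjusted p = 2.44e-10). pcdh18b, a protocadherin, had 83 UMIs against 2, a ratio of 211, 95% interval 56.5 to 1769. mgp and rasgrf2b had 0 UMIs in evx excitatory neurons and were at least 71.1-fold higher and at least 52.5-fold higher. penkb, a proenkephalin, had 44 UMIs against 2 (ratio 112). Its UMIs in Hmx-slc6a1b neurons came from 2 cells of library 1 and 1 cell of library 2. An interval that takes each UMI as independent is therefore not given for it. Its level in Hmx neurons without slc6a1b was 1.5 and 98.1 CPM.

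The largest decreases were in genes with 0 UMIs in Hmx-slc6a1b neurons, whose folds are lower bounds. They were sema3gb, a semaphorin (112 UMIs in evx excitatory neurons, at least 7.35-fold lower), col6a3, a collagen (120, at least 7.88-fold lower), and the sodium channel gene scn5lab (117, at least 7.68-fold lower). The others were pax6a (116, at least 7.62-fold lower), sez6b (103, at least 6.76-fold lower), fgf11a (100, at least 6.57-fold lower), the tektin gene tekt4 (90, at least 5.91-fold lower) and fibina (76, at least 4.99-fold lower). Their levels in evx excitatory neurons were at most 24.1 CPM. Among genes with more UMIs, txn had 7.01 and 4.51 CPM against 547 and 699.7 CPM (-6.80 ± 0.34, adjusted p = 1.14e-10), a gene named for the first comparison.

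All 18 genes that the study described as lower in presumed mutant cells were lower in Hmx-slc6a1b neurons than in evx excitatory neurons (median -2.39), and as this list was chosen on these cells it is no independent evidence. nr5a2 had 7.01 and 6.01 CPM against 276 and 388 CPM (-5.72 ± 0.32, adjusted p = 4.91e-10), and nr2f5 7.01 and 15 CPM against 169 and 212 CPM (-4.20 ± 0.27, adjusted p = 2.58e-09). mafba fell by 3.02, pou3f1 by 2.88, LOC100537384 by 2.87, pou3f2b by 2.81, pou3f3b by 2.72 and pou2f2a by 2.54 on the log2 scale. ccdc3a, zfhx3, scrt2, ebf1a, scrt1a, pbx1b, luzp1, dachc and mycb fell by 2.24, 2.18, 1.91, 1.90, 1.84, 1.82, 1.42, 1.32 and 1.07. Of the 6 genes described as higher there, 4 were higher and 2 did not pass. zmat4b had 173 and 159 CPM against 6.22 and 4.81 CPM (4.82 ± 0.29, adjusted p = 1.07e-09), and znf385c 112 and 114 CPM against 4.26 and 8.36 CPM (4.04 ± 0.23, adjusted p = 6.39e-10). otpb had 471 and 491 CPM against 89.4 and 161 CPM (1.92 ± 0.18, adjusted p = 3.46e-07), and znf385a differed by 2.21 ± 0.33, adjusted p = 6.85e-05. The log2 differences of bhlhe22 and irx1a were 1.08 ± 0.41, adjusted p = 0.0691, and -0.72 ± 0.35, adjusted p = 0.17. All 6 genes of the first group were higher and all 3 of the second lower, with medians of 2.26 and -3.04.

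Among V0v genes, zgc:153395 (skor2) had 25.2 and 3.0 CPM in Hmx-slc6a1b neurons, against 547 and 380.3 CPM in evx excitatory neurons (-5.10 ± 0.49, adjusted p = 4.26e-07). ebf3a had 36.5 and 76.6 CPM against 238 and 252 CPM (-2.24 ± 0.23, adjusted p = 8.41e-07). zgc:65851 (neff1) and inab were lower too (-1.59 ± 0.19, adjusted p = 7.72e-06 and -0.88 ± 0.17, adjusted p = 0.000963). Higher were nefma (375 and 332 CPM against 52.1 and 31.4 CPM, 3.04 ± 0.20, adjusted p = 2.58e-09) and nefmb (2.33 ± 0.27, adjusted p = 4.89e-06). uncx (0.30 ± 0.18, adjusted p = 0.286) and uncx4.1 (-0.74 ± 0.39, adjusted p = 0.209) did not pass. Of the inhibitory interneuron factors foxd3 was higher (3.07 ± 0.73, adjusted p = 0.0047, from the few cells given above). pax8 (-1.86 ± 0.21, adjusted p = 3.29e-06), pax2b (-0.83 ± 0.26, adjusted p = 0.0284), lhx1b (-1.33 ± 0.43, adjusted p = 0.0333) and lhx5 (-0.57 ± 0.18, adjusted p = 0.0283) were lower. Of these, lhx5 lost its call under 5 of 9 alternatives, pax2b under 4 and lhx1b under 3, DESeq2 and the fit without the library term among them for each, while pax8 kept its call under all 9. foxd3 lost its call under both of these fits, 2 of the 8 alternatives that tested it. pax2a (adjusted p = 0.484), pax5 (adjusted p = 0.791) and lhx1a (adjusted p = 0.073) did not pass.

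Other gene lists are described by their counts and medians beside all genes tested, with 10.2, 4.42 and 10.9% of all genes higher and 8.99, 4.93 and 9.21% lower in the 3 comparisons. Of 18 immediate early genes, which neurons switch on after activity or stress, 11 were higher and 1 lower against Hmx neurons without slc6a1b (median log2 difference 0.90). The counts were 7 higher and 1 lower (0.62) against slc6a1b neurons without Hmx and 13 higher and 1 lower (1.33) against evx excitatory neurons. atf3 had 635 and 446 CPM in Hmx-slc6a1b neurons, against 166 and 92.2 CPM in Hmx neurons without slc6a1b (2.02 ± 0.22, adjusted p = 4.96e-06). nr4a1 had 63.1 and 104 CPM against 6.77 and 9.59 CPM (3.23 ± 0.36, adjusted p = 5.44e-06). fosb differed from evx excitatory neurons by 2.38 ± 0.21, adjusted p = 9.73e-08 and ier2b from slc6a1b neurons without Hmx by 1.36 ± 0.22, adjusted p = 0.000664. In contrast, 1 gene of the list, nr4a2b, fell in all 3. atf3 was also found in 69.2% and 77.7% of the thinned collagen cells. Even without thinning, it was found in 92 of 178 and 86 of 152 Hmx-slc6a1b neurons. How much of the atf3 signal in either kind of cell was free RNA was not tested. The effect of dissociation on these genes was not tested. Of 22 heat-shock genes, 0 were higher and 2 lower against Hmx neurons without slc6a1b (median log2 difference -0.26). Of the same genes, 1 higher and 1 lower (-0.16) were found against slc6a1b neurons without Hmx and 3 higher and 4 lower (-0.18) against evx excitatory neurons. hsp90ab1 had 5907 and 4984 CPM against 7832 and 7113 CPM in Hmx neurons without slc6a1b (-0.56 ± 0.13, adjusted p = 0.0055).

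Synapse and channel genes that passed were mostly higher in Hmx-slc6a1b neurons. Of 23 synapse and release genes, 10 were higher and 0 lower against Hmx neurons without slc6a1b (median log2 difference 0.47). Against slc6a1b neurons without Hmx there were 10 higher and 0 lower (0.53), and 8 higher and 3 lower (0.28) against evx excitatory neurons. The synapsin genes syn1 (128 and 125 CPM against 37.6 and 38.4 CPM in Hmx neurons without slc6a1b, 1.64 ± 0.19, adjusted p = 8.2e-06) and syn2a (1.09 ± 0.16, adjusted p = 0.000113) had the lowest adjusted p. cplx2l and snap25b were lower than in evx excitatory neurons (-1.46 ± 0.16, adjusted p = 1.7e-06 and -1.16 ± 0.15, adjusted p = 2.11e-05). Of 29 sodium and calcium channel genes, 9 were higher and 2 lower against Hmx neurons without slc6a1b (median log2 difference 0.20). Set against slc6a1b neurons without Hmx there were 0 higher and 0 lower (0.24), and against evx excitatory neurons 9 higher and 3 lower (0.30). cacna1g, a T-type calcium channel, had 82.8 and 73.6 CPM against 15 and 14.8 CPM in Hmx neurons without slc6a1b (2.28 ± 0.34, adjusted p = 0.000137) and cacna1c 23.8 and 37.6 CPM against 4.51 and 5.9 CPM (2.44 ± 0.45, adjusted p = 0.000884). Of 32 potassium channel genes, 7 were higher and 2 lower against Hmx neurons without slc6a1b (median log2 difference 0.17). The counts were 2 higher and 1 lower (0.50) against slc6a1b neurons without Hmx and 14 higher and 4 lower (0.49) against evx excitatory neurons. kcnj3a, a G protein-gated channel, had 64.5 and 102 CPM against 30.8 and 19.9 CPM in Hmx neurons without slc6a1b (1.61 ± 0.30, adjusted p = 0.00103) and kcnh3 58.9 and 51.1 CPM against 21.8 and 14 CPM. Of 2 tested acid-sensing channel genes, asic1c was higher in all 3, with 511 and 532 CPM in Hmx-slc6a1b neurons, against 190.3 and 165 CPM in Hmx neurons without slc6a1b. It had 433 and 186 CPM in slc6a1b neurons without Hmx and 103 and 122 CPM in evx excitatory neurons.

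Of 12 GABA-A and glycine receptor genes, 5 were higher and 2 lower against Hmx neurons without slc6a1b (median log2 difference 0.46). Of the same genes, 3 higher and 1 lower (0.78) were found against slc6a1b neurons without Hmx and 5 higher and 2 lower (0.63) against evx excitatory neurons. The glycine receptor gene glra1 was lower in all 3 comparisons, with 43.5 and 75.1 CPM in Hmx-slc6a1b neurons, against 75.2 and 162 CPM in Hmx neurons without slc6a1b. It had 83 and 171 CPM in slc6a1b neurons without Hmx and 133 and 195 CPM in evx excitatory neurons. Of 17 ionotropic glutamate receptor genes, 6 were higher and 1 lower against Hmx neurons without slc6a1b (median log2 difference 0.71). Against slc6a1b neurons without Hmx there were 2 higher and 1 lower (0.86), and 7 higher and 2 lower (0.68) against evx excitatory neurons. The NMDA receptor gene grin1b had 42.1 and 45.1 CPM against 7.52 and 6.64 CPM in Hmx neurons without slc6a1b (2.51 ± 0.41, adjusted p = 0.000314) and grin2db 37.9 and 69.1 CPM against 9.03 and 21.4 CPM. Of 7 nicotinic receptor genes, 2 were higher and 1 lower against Hmx neurons without slc6a1b (median log2 difference 0.25). Set against slc6a1b neurons without Hmx there were 3 higher and 0 lower (0.69), and against evx excitatory neurons 2 higher and 1 lower (-0.13). Here chrna2b and its paralogue chrna2a, between which reads could be split, moved apart against Hmx neurons without slc6a1b, chrna2a being lower (147 and 128 CPM against 243 and 198 CPM, -0.78 ± 0.17, adjusted p = 0.00326).

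Of 9 tested genes for peptides and secreted synaptic proteins, 4 were higher and 1 lower against Hmx neurons without slc6a1b (median log2 difference 0.47). The counts were 2 higher and 2 lower (0.69) against slc6a1b neurons without Hmx and 6 higher and 3 lower (1.20) against evx excitatory neurons. scg2a, a secretogranin of dense-core vesicles, had 107 and 131 CPM in Hmx-slc6a1b neurons, against 9.78 and 14.8 CPM in Hmx neurons without slc6a1b and 5.24 and 1.52 CPM in evx excitatory neurons. nxph1, a neurexophilin, was lower than in evx excitatory neurons (-3.26 ± 0.32, adjusted p = 4.7e-07). Of 9 calcium-binding protein genes, 2 were higher and 0 lower against Hmx neurons without slc6a1b (median log2 difference 0.45). Of the same genes, 4 higher and 0 lower (0.85) were found against slc6a1b neurons without Hmx and 4 higher and 1 lower (1.12) against evx excitatory neurons. calb2b, calretinin, had 814 and 834 CPM in Hmx-slc6a1b neurons, against 290.4 and 345 CPM in Hmx neurons without slc6a1b. It had 649.8 and 281 CPM in slc6a1b neurons without Hmx and 361 and 229 CPM in evx excitatory neurons. Of 6 neurofilament genes, 5 were higher and 1 lower against Hmx neurons without slc6a1b (median log2 difference 1.81). Against slc6a1b neurons without Hmx there were 1 higher and 0 lower (0.66), and 4 higher and 2 lower (1.58) against evx excitatory neurons. nefma had the lowest adjusted p in each.

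Of 36 hox genes, which record position along the body axis, 0 were higher and 15 lower against Hmx neurons without slc6a1b (median log2 difference -0.57). Set against slc6a1b neurons without Hmx there were 4 higher and 12 lower (-0.56), and against evx excitatory neurons 2 higher and 10 lower (-0.49). hoxb3a had 94 and 156 CPM in Hmx-slc6a1b neurons, against 173 and 322 CPM in Hmx neurons without slc6a1b (-1.06 ± 0.17, adjusted p = 0.000227), and hoxa3a 77.1 and 104 CPM against 166 and 198 CPM. hoxb8b had 14 and 15 CPM against 40.3 and 65.4 CPM in evx excitatory neurons. Of 45 axon guidance genes, 2 were higher and 15 lower against Hmx neurons without slc6a1b (median log2 difference -0.37). The counts were 4 higher and 4 lower (-0.10) against slc6a1b neurons without Hmx and 8 higher and 12 lower (-0.23) against evx excitatory neurons. robo3, a receptor of commissural axons, had 46.3 and 45.1 CPM in Hmx-slc6a1b neurons, against 193 and 318 CPM in Hmx neurons without slc6a1b. It had 277 and 409 CPM in slc6a1b neurons without Hmx and 198 and 283 CPM in evx excitatory neurons. The level was lowest in Hmx-slc6a1b neurons in both libraries (adjusted p = 3.25e-07, 3.21e-07 and 6.65e-08). plxna1a, a plexin, had 9.82 and 31.5 CPM against 74.5 and 99.6 CPM in Hmx neurons without slc6a1b. Of 37 cadherin and protocadherin genes, 5 were higher and 4 lower against Hmx neurons without slc6a1b (median log2 difference -0.17). Of the same genes, 4 higher and 1 lower (0.03) were found against slc6a1b neurons without Hmx and 8 higher and 5 lower (-0.20) against evx excitatory neurons. pcdh7b had 279 and 319.9 CPM against 115 and 73.9 CPM in slc6a1b neurons without Hmx.

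Most ribosomal protein genes were lower in Hmx-slc6a1b neurons in each comparison, and a minority of the oxidative phosphorylation genes were higher against Hmx neurons without slc6a1b. Of 92 ribosomal protein genes, 1 was higher and 80 lower against Hmx neurons without slc6a1b (median log2 difference -0.74). Against slc6a1b neurons without Hmx there were 1 higher and 62 lower (-0.59), and 2 higher and 79 lower (-0.70) against evx excitatory neurons. rplp1 had 2131 and 1673 CPM in Hmx-slc6a1b neurons, against 4492 and 3225 CPM in Hmx neurons without slc6a1b. It had 3212 and 3416 CPM in slc6a1b neurons without Hmx and 4191 and 3324 CPM in evx excitatory neurons. Of 82 oxidative phosphorylation genes, 34 were higher and 0 lower against Hmx neurons without slc6a1b (median log2 difference 0.42). Set against slc6a1b neurons without Hmx there were 5 higher and 2 lower (0.27), and against evx excitatory neurons 3 higher and 1 lower (-0.03). cox6b1 had 417 and 554 CPM against 114 and 127 CPM in Hmx neurons without slc6a1b (1.92 ± 0.21, adjusted p = 3.61e-06) and ndufa4 986 and 952 CPM against 389 and 387 CPM (1.22 ± 0.16, adjusted p = 4.57e-05).

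Of 7 progenitor genes, 0 were higher and 3 lower against Hmx neurons without slc6a1b (median log2 difference -2.19). The counts were 0 higher and 5 lower (-3.36) against slc6a1b neurons without Hmx and 0 higher and 1 lower (-1.35) against evx excitatory neurons. fabp7a had 5.61 and 40.6 CPM in Hmx-slc6a1b neurons, against 13.8 and 439 CPM in slc6a1b neurons without Hmx. Of 3 tested factors of excitatory and motor neurons, 0 were higher and 2 lower against Hmx neurons without slc6a1b (median log2 difference -2.47). Of the same genes, 1 higher and 1 lower (0.81) were found against slc6a1b neurons without Hmx and 1 higher and 0 lower (2.03) against evx excitatory neurons. foxp2 had 4.21 and 19.5 CPM against 39.1 and 137 CPM in Hmx neurons without slc6a1b. Of 5 neuron markers, 3 were higher and 0 lower against Hmx neurons without slc6a1b (median log2 difference 0.50). Against slc6a1b neurons without Hmx there were 2 higher and 0 lower (0.55), and 1 higher and 1 lower (0.15) against evx excitatory neurons. Of 5 fibroblast genes, 0 were higher and 2 lower against Hmx neurons without slc6a1b (median log2 difference -2.55). Set against slc6a1b neurons without Hmx there were 0 higher and 0 lower (-0.34), and against evx excitatory neurons 0 higher and 1 lower (-1.90). Of 9 muscle genes, ckma was lower than in Hmx neurons without slc6a1b and no other passed, and of 4 skin and 3 blood genes none passed. Of the 2 oligodendrocyte and neural crest genes tested, olig2 and foxd3, both were lower than in Hmx neurons without slc6a1b. olig2 had 0 UMIs in Hmx-slc6a1b neurons, against 0 and 34.7 CPM in Hmx neurons without slc6a1b and 0 and 82.3 CPM in slc6a1b neurons without Hmx, all from library 2. Only slc18a3a of the motoneuron genes and no notochord gene was abundant enough to test.

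**Figure D4:**
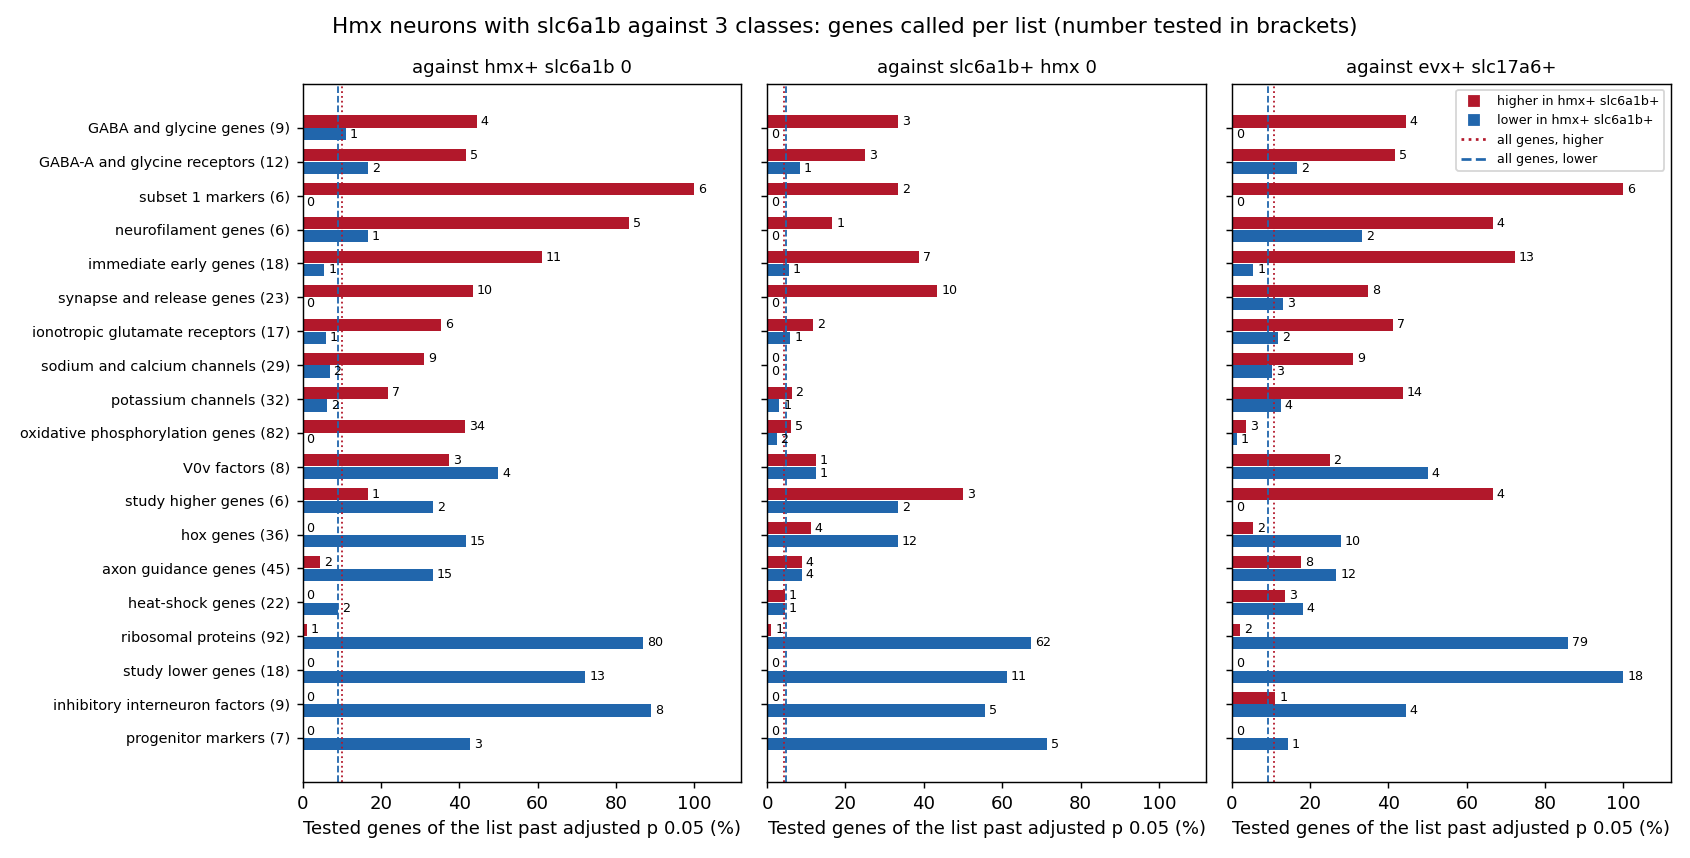
Share of the tested genes of each list (%, x axis) that passed an adjusted p of 0.05, higher (red) or lower (blue) in Hmx-slc6a1b neurons, in the comparisons with Hmx neurons without slc6a1b, slc6a1b neurons without Hmx and evx excitatory neurons. Numbers of genes stand beside the bars, and lines mark the shares of all genes (10.2% and 8.99% in the first). The study lower, study higher and subset 1 (first group) lists are those chosen by the study on these cells. The ribosomal proteins (80 of 92 in the first) and the study's lower genes reach far to the lower side in each panel.

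Across all 3 comparisons 237 genes were higher and 289 lower in Hmx-slc6a1b neurons than in every other class, of 9257 tested. These counts come from comparisons that share the sums of Hmx-slc6a1b neurons. Genes higher in all 3 included gad1b, slc32a1, abat, pnoca, chrna2b, anos1a, nefma, tmeff2b and plcxd3. Genes lower in all 3 included esrrb, zfhx3, pou2f2a, pax8, robo3, nkx1.2lb and bcl11ba. Several of these calls were unstable against slc6a1b neurons without Hmx. There abat lost its call under 7 of 9 alternatives, chrna2b under 6, and gad1b, nefma and pou2f2a under 4 each. The levels of abat also overlapped in that comparison. plcxd3 had 150.1 and 173 CPM in Hmx-slc6a1b neurons, against 5.27 and 18.4 CPM in Hmx neurons without slc6a1b. It had 36.9 and 14.8 CPM in slc6a1b neurons without Hmx and 4.59 and 1.77 CPM in evx excitatory neurons.

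Among the Hmx-slc6a1b neurons themselves, the largest differences between the 2 libraries were in heat-shock genes. Of 3679 genes with at least 30 UMIs in a library, 32 were more than 1 log2 unit higher in library 1 and 35 in library 2 (log2 of CPM plus 10, no test, 1 sum a library). hsp70l, an inducible chaperone, had 10591 CPM in library 1 and 125 CPM in library 2. The other 5 genes of the largest differences towards library 1 were hsp70.3, dnajb1b, hsp70.2, hsp70.1 and hsp90aa1.2, with 2239, 1540.1, 2462, 1664 and 5731 CPM in library 1 and 3.0, 7.51, 22.5, 21 and 199.8 CPM in library 2. The hsp70 genes are near-identical copies, among which reads could be split. hsp70l had a UMI in 173 of 178 cells of library 1 and in 34 of 152 cells of library 2, so the difference was spread over the cells. The 6 genes of the largest differences towards library 2 were CABZ01021592.1, gch2, gstp1, hbae1.1, krt4 and si:dkey-251i10.2, with 906, 137, 129, 96.1, 72.1 and 46.6 CPM there and 42.1, 0, 8.42, 4.21, 1.40 and 0 CPM in library 1. A single cell held 79.9% of the CABZ01021592.1 UMIs, 85.7% of those of gch2, a pigment cell gene, 77.9% of those of gstp1 and 93.5% of those of si:dkey-251i10.2 in library 2. The haemoglobin gene hbae1.1 was spread over 46 cells. gad1b, slc32a1 and pnoca were close in the 2 libraries, as given above.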

How the data were processed

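Both libraries were deposited as UMI counts per gene and cell, which the authors made with Cell Ranger 4.0.0 and the Lawson Lab zebrafish annotation after its own cell calling. The submitters' processing notes also name Partek, and the genome build is not given in the sources used here. Deposited counts were used unnormalized. Cells were kept with 500 to 2500 genes, at most 12000 UMIs and at most 6% mitochondrial UMIs, limits that the study states. The upper limits stood in for a doublet caller, and none was run. Of 36351 listed genes 216 shared a symbol with another, and the fit kept genes apart by identifier.

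UMIs were summed per class and library, giving 8 sums of 216996 to 3947203 UMIs, and tested in edgeR 4.0.16 (R 4.3.3) with TMM scaling, the default filter on low counts, class and library terms and the 2-sided quasi-likelihood F test, with Benjamini-Hochberg adjustment over 9257 genes and a threshold of 0.05. The library term pairs the classes of a library, since their cells come from the same sample. It takes out the level difference between the libraries. The spread that remains, on 3 residual degrees of freedom, is pooled over the classes. The test also draws the spread of each gene towards a trend over all genes tested, so the p-values rest partly on other genes. SE was the size of the log2 difference over the square root of F. The 14 genes used in class rules were not tested. Shares used python 3.11.15, numpy 2.4.6, scipy 1.17.1 and pandas 2.3.3, with exact Clopper-Pearson 95% intervals, which cover counting error only, and figures matplotlib 3.10.9. Intervals of UMI ratios were exact binomial 95% intervals on UMIs summed over both libraries. They too cover counting error only, and not the spread between cells or libraries. Limits for 0 counts took 3 UMIs or cells.

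Named genes were those of the rule and of the transmitter, V0v, study and inhibitory factor lists with UMIs in Hmx-slc6a1b neurons. Per comparison the 8 largest changes each way among called genes were also named. These had the same sign in both libraries and no clone name. They also had at least 30 UMIs over both libraries in the class where the gene was higher, with no limit in the other class. Other lists gave counts, medians and leading genes. Some genes counted in the lists are not reported here by name. The rule, the classes and the lists were chosen with earlier results of these data known. The alternatives were RLE scaling, DESeq2 1.42.0, no filter on low counts, no library term, a 10% mitochondrial limit, no upper limits, at least 2 UMIs of the markers, no excluded genes and thinning to 2000 UMIs before the classes were chosen.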

Additional observations from a re-analysis of the deposited data

Results flagged for a closer look

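Cells outside the quality limits also met the marker rule. Above the upper limits on genes or UMIs, 17 of 140 cells of library 1 (12.1%, exact 95% interval 7.24 to 18.7%) and 41 of 745 cells of library 2 (5.50%, 3.98 to 7.39%) held the markers, where 3 cells of the total would be 2.14% and 0.403%. Above the mitochondrial limit, 17 of 364 cells of library 1 (4.67%, 2.74 to 7.37%) and 14 of 343 cells of library 2 (4.08%, 2.25 to 6.75%) did, where 3 cells would be 0.824% and 0.875%. These cells entered none of the comparisons above. With no upper limits the Hmx-slc6a1b neurons were 5.46% of elavl3 cells, and with a mitochondrial limit of 10% they were 5.13%, against 5.09% with the limits used.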

How the results depend on the processing

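The number of genes past the threshold, 1776 against Hmx neurons without slc6a1b, 865 against slc6a1b neurons without Hmx and 1864 against evx excitatory neurons, fell to 991, 569 and 1115 with DESeq2, to 860, 182 and 1072 with no replicate block (the library term left out), and to 792, 94 and 978 when cells were thinned to 2000 UMIs before the classes were chosen. Against slc6a1b neurons without Hmx it also fell to 281 with no upper limits and to 63 with at least 2 UMIs of the markers. RLE scaling, no filter on low counts, the 10% mitochondrial limit and no excluded genes kept all 3 counts within 1.5 times. With only 1 library no test could be run, as no residual degrees of freedom remain. The share of Hmx-slc6a1b neurons among elavl3 cells was 3.25% with at least 2 UMIs of the markers and 3.61% after thinning, and 4.72 to 5.46% in single libraries. Mean shares with a UMI in Hmx-slc6a1b neurons depended on depth, and are given after thinning to 1000 UMIs, at 2000 UMIs and unthinned. They were 8.77, 15.0 and 25.8% for gad1b, 1.83, 2.78 and 3.99% for gad2, 57.8, 76.9 and 92.4% for slc32a1, 13.6, 24.5 and 33.8% for slc6a5, 11.4, 17.0 and 27.6% for evx1, 4.97, 7.36 and 12.5% for evx2 and 3.66, 10.9 and 17.5% for slc17a6a. The 67 genes that differed between libraries by over 1 log2 unit became 108 with no upper limits and 33 after thinning, alternatives chosen after seeing the data. Among 232 log2 differences of named genes, 165 past the threshold, the sign turned with a call on at least 1 side for foxd3 against Hmx neurons without slc6a1b in library 1 alone (single libraries -1.95 to 0.23), slc6a5 against slc6a1b neurons without Hmx with no excluded genes (-1.17), and, against the same class, nr2f5 with at least 2 UMIs of the markers (0.96) and bhlhe22 in library 1 alone (single libraries -1.62 to 1.05). A further 51 turns of sign, counted per difference and alternative and leaving out single libraries, were in differences past the threshold under neither setting. The cause was not tested. Of the named genes past the threshold, 41 of 59, 9 of 44 and 47 of 62 stayed past it under every alternative that tested them in the 3 comparisons. The limits are 2 libraries, classes set by single UMIs, and no genotype per cell.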
